A study of Mus musculus with 6 samples.

Results

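The T cell receptor beta variable segments were examined in regulatory T (Treg) cells sorted from mouse tumours. All rows of the deposited table whose gene name begins with Trbv were taken, which gave 35 of 55450 genes. Of these, GENCODE release M21 annotates 22 as variable gene segments and 13 as variable segment pseudogenes, all on GRCm38 chromosome 6. The share of a segment is its TPM (an abundance per transcript length that sums to 1000000 in each library) divided by the summed TPM of the Trbv rows in the same library.

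Treg cells are CD4 T cells that express Foxp3 and dampen immune responses. They were taken from tumours of about 8 mm grown in C57BL/6 mice from MC38, a mouse colon carcinoma line. Of the 6 libraries, 3 came from mice whose Treg cells lack Tim-3 and 3 from mice whose Treg cells have it. Havcr2 encodes Tim-3, a receptor that can restrain T cells. The labels give no allele, Cre driver, sex or age, nor whether each library is from its own mouse. P-values therefore measure the spread between libraries, which may be technical. The column names give the group but no replicate number. The libraries are called deficient C1, deficient D and deficient dated, and sufficient A1, sufficient B1 and sufficient dated, where dated marks the 1 column per group whose name carries a calendar date.

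Each developing T cell builds its beta chain by joining 1 variable (Trbv) segment to a diversity (Trbd) and a joining (Trbj) segment, and splices the product to the constant segment Trbc1 or Trbc2. The variable segment supplies the first complementarity-determining loops, which mainly contact the MHC molecule, and the start of the third loop, which meets the peptide. A mature T cell keeps its joined segment through every division. The levels of the Trbv segments in a sorted population therefore reflect in part which receptors its cells carry. They are no direct count of receptors, as Trbv24, annotated as a pseudogene, had 2.56 to 29.95 TPM over the 6 libraries. In bulk RNA, fewer cells that use a segment and less RNA of it per cell cannot be told apart, and single clones are not resolved.

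Havcr2 stood at 4.84 to 18.3 TPM in deficient and 21.5 to 51.1 TPM in sufficient libraries, without overlap. All 6 Treg markers examined (Foxp3, Il2ra, Ctla4, Ikzf2, Tnfrsf18 and Cd4) were present in every library, and their summed level was 3973 to 5150 TPM in deficient and 4323 to 6528 TPM in sufficient libraries. The CD8 markers Cd8a and Cd8b1 summed to 11.8 to 42.5 TPM in deficient and 11.3 to 28.4 TPM in sufficient libraries. The 8 macrophage and monocyte markers summed to 1015.5 TPM in deficient C1 and 663 TPM in sufficient B1, against 12.1 to 101 TPM in the other libraries. Among transcripts of B and plasma cells, Ms4a1 was at 0 in every library, Ighm had 396 to 550 TPM in deficient and 287 to 441 TPM in sufficient libraries, and Igkc had 172 to 196 TPM in deficient and 36.4 to 150 TPM in sufficient libraries. NK markers summed to at most 8.37 TPM, dendritic cell markers to at most 9.28 TPM and epithelial markers to at most 24.6 TPM in any library, and the 3 proliferation genes to 35.1 to 171 TPM in deficient and 52.3 to 105 TPM in sufficient libraries. The deficient dated library held 0.010 TPM over 4 Y-linked genes, against 140 to 186 TPM in the other 5. The dated libraries thus differed from each other in Y-linked transcripts as well as in group, unlike the undated ones. The part of any of these in the values of the segments was not tested, and depth is unknown because TPM keeps no counts.

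Of the 35 segments, 22 reached 1 TPM in at least 3 libraries, and these 22 did so in all 6. They comprised 21 gene segments and the pseudogene Trbv24. The other 13 were low in every library. Of them, 7 were listed at 0 throughout and 6 reached at most 1.53 TPM, the highest being the pseudogene Trbv22 in the deficient dated library. Trbv22 had 0.41, 1.07 and 1.53 TPM in deficient C1, D and dated, and 0 in each sufficient library. Trbv21 was the 1 annotated gene segment that missed the filter, with 0.86 TPM in the deficient dated library and 0 elsewhere. Every 75-base window of the annotated transcripts, the read length of the study, was found in no other gene's transcript for 32 of the 35 segments. The exceptions were Trbv4, Trbv5 and the pseudogene Trbv8, which lie inside longer transcripts on the same strand. For Trbv4 and Trbv5 this is the non-coding RNA 5830405F06Rik, at 1.43 to 2.59 TPM in deficient and 1.5 to 2.21 TPM in sufficient libraries, so reads can be divided between them.

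The repertoire was broad in both groups. The 12 segments with the highest mean share took 79.2% to 87.0% of the summed Trbv TPM of a library. Trbv13-2 had the highest mean share over the 6 libraries, followed by Trbv1, Trbv5, Trbv3, Trbv19, Trbv16, Trbv20, Trbv13-1, Trbv12-2, Trbv31, Trbv13-3 and Trbv17. The leading segment of a library was Trbv16 in deficient C1, Trbv13-2 in deficient D and Trbv1 in deficient dated. It was Trbv13-2 in sufficient A1 and sufficient dated, and Trbv1 in sufficient B1.

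**Figure D1:**
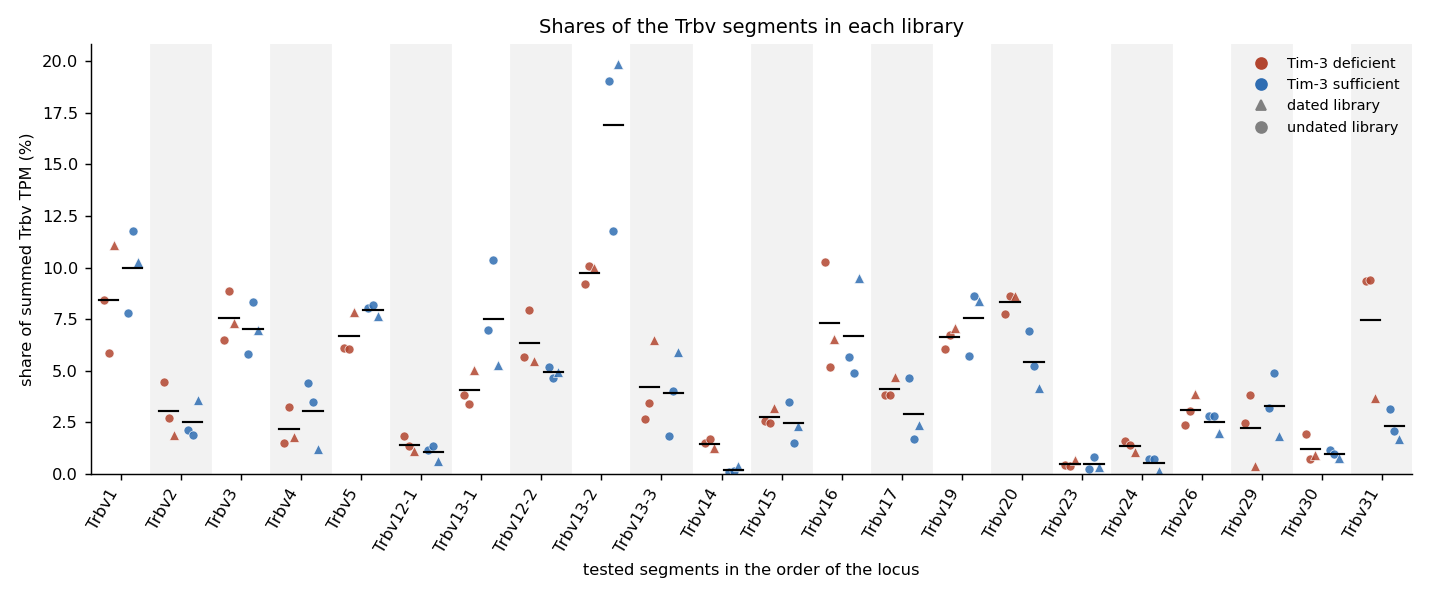
Share of the summed Trbv TPM (%, vertical axis) of the 22 tested segments in the order of the locus, with 1 point per library (triangles, dated libraries) and the group mean as a black bar. Trbv13-2 lies at 9.18% to 10.1% in Tim-3 deficient and 11.8% to 19.9% in Tim-3 sufficient libraries, and Trbv31 at 3.67% to 9.40% in deficient and 1.69% to 3.13% in sufficient libraries.

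The Trbv13 subfamily took a smaller share in every deficient library than in every sufficient library. Its 3 members, Trbv13-1, Trbv13-2 and Trbv13-3, are the segments long known in the mouse by their common serological name V beta 8. The subfamily was singled out after its values were seen. Together they held 15.6%, 16.8% and 21.5% of the Trbv sum in deficient C1, D and dated, against 27.8%, 26.1% and 31.0% in sufficient A1, B1 and dated. The mean was 18.0% ± 3.1 in deficient and 28.3% ± 2.5 in sufficient libraries (SD, n = 3 each), a difference of -10.3 percentage points, which was -10.7 between the undated libraries. With 3 libraries against 3, an exact two-sided permutation test cannot go below 0.1, so shares are described without a test.

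The 3 members did not all have smaller shares in the deficient libraries. Trbv13-2 held 9.18%, 10.1% and 9.96% of the sum in deficient C1, D and dated, against 19.04%, 11.8% and 19.9% in sufficient A1, B1 and dated. The deficient libraries lay close together and below each sufficient one, of which B1 was lowest. Trbv13-1 held 3.80%, 3.36% and 5.03% in the deficient and 6.95%, 10.3% and 5.26% in the sufficient libraries in the same order, again without overlap, although the dated libraries differed by only -0.23 percentage points. Trbv13-3 held 2.65%, 3.42% and 6.50% in the deficient and 1.81%, 3.99% and 5.89% in the sufficient libraries, which overlapped.

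As levels rather than shares, the Trbv13 segments overlapped between the groups. Trbv13-2 had 153, 217 and 249 TPM in deficient C1, D and dated, and 288, 174 and 351 TPM in sufficient A1, B1 and dated. Its log2 fold change, a difference in log2(TPM + 1), was -0.36 ± 0.28 (SE; limma adjusted p = 0.650 over 12155 genes). Trbv13-1 had 63.4, 72.5 and 126 TPM in the deficient and 105, 153 and 93.0 TPM in the sufficient libraries, with a log2 fold change of -0.45 ± 0.29 (limma adjusted p = 0.573). This was -0.89 between the undated libraries and 0.43 between the dated ones. Trbv13-3 averaged 93.6 ± 61.6 TPM in deficient and 63.5 ± 38.6 TPM in sufficient libraries (SD, n = 3 each), with a log2 fold change of 0.54 ± 0.56.

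The coding part of the variable exon is shown for the 3 members because their likeness sets how reads are assigned between them. It is 294 bases long in each, and Trbv13-2 was 91.8% identical to Trbv13-3 (24 differences) and 88.8% identical to Trbv13-1 (33 differences). Sequences are from GENCODE transcripts on GRCm38, written 5′ to 3′, and capitals mark the 49 positions that are not the same in all 3.
Trbv13-1, chr6:41116175-41116468, plus strand: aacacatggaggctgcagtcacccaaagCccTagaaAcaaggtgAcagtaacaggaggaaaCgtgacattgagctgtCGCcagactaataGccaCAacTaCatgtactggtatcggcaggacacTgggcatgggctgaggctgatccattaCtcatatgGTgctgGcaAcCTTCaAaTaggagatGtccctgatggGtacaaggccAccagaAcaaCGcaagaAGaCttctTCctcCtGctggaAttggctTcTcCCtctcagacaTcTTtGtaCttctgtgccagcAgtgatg
Trbv13-2, chr6:41121539-41121832, plus strand: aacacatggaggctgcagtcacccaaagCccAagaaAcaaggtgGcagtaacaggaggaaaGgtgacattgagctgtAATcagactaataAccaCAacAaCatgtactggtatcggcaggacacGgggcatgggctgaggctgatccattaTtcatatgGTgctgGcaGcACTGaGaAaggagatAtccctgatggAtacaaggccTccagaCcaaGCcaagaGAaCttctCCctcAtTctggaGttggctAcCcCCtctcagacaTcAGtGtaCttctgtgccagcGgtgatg
Trbv13-3, chr6:41130292-41130585, plus strand: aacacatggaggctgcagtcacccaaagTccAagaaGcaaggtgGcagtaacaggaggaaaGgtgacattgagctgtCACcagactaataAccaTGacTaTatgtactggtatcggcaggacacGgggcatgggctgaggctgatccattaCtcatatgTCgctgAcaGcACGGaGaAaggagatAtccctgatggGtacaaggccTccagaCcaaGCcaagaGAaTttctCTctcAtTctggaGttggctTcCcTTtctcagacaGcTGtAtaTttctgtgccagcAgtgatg
The start of the exon is identical in all 3, the capitals are spread along the rest, and no window of 75 bases is shared between them.

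Trbv14 and Trbv31 stood furthest above the sufficient libraries. Trbv14 (ENSMUSG00000076471.3, chr6:41135145-41135616, plus strand) had 24.6, 36.0 and 30.7 TPM in deficient C1, D and dated, against 1.10, 2.20 and 6.63 TPM in sufficient A1, B1 and dated. Each deficient library was above each sufficient one, and the sufficient dated library was the highest of its group. The mean was 30.4 ± 5.7 TPM in deficient and 3.31 ± 2.93 TPM in sufficient libraries (SD, n = 3 each). Its log2 fold change was 3.06 ± 0.46 (SE), 8.37-fold on the log2(TPM + 1) scale, with a limma adjusted p of 0.0562, which missed the threshold of 0.05. Between the undated libraries the difference was 3.57, and between the dated ones it was 2.05. With the date mark as a covariate it passed (limma adjusted p = 0.0135).

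Trbv31 (ENSMUSG00000076499.3, chr6:41557691-41558452, minus strand) is the 1 segment that lies downstream of Trbc2 in the opposite orientation, and it joins by inversion of the intervening DNA. It had 156, 203 and 91.7 TPM in deficient C1, D and dated, against 47.3, 30.7 and 29.9 TPM in sufficient A1, B1 and dated. The groups did not overlap, and the deficient dated library was the lowest of its group. The mean was 150 ± 56 TPM in deficient and 36.0 ± 9.8 TPM in sufficient libraries (SD, n = 3 each). Its log2 fold change was 1.99 ± 0.31 (SE), a 3.97-fold difference, with a limma adjusted p of 0.0680. It was 2.19 between the undated and 1.58 between the dated libraries, and the limma adjusted p was 0.0116 with the date mark as a covariate. Its share of the Trbv sum was 9.33%, 9.40% and 3.67% in the deficient and 3.13%, 2.07% and 1.69% in the sufficient libraries.

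The calls on both segments turned on single libraries and settings. Without the deficient dated library, Trbv14 (limma adjusted p = 0.0477) and Trbv31 (0.0140) passed, where 121 of 12155 tested genes were called. Without the sufficient dated library Trbv14 passed (0.0308) and Trbv31 did not (0.129), where 24 genes were called. With deficient C1, deficient D, sufficient A1 or sufficient B1 left out in turn, neither passed. The limma adjusted p was then 0.129 to 0.237 for Trbv14 and 0.146 to 0.273 for Trbv31. Over all alternatives tried, the adjusted p lay between 0.0103 and 0.429 for Trbv14 and between 0.0116 and 0.487 for Trbv31, and the sign was kept in each.

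The variable exons of Trbv14 and Trbv31 are shown because they had the smallest p of the tested segments and carry unlike germline ends into the third loop. Capitals run from the last in-frame cysteine codon, where the third complementarity-determining loop begins, to the end of the segment.
Trbv14, chr6:41135320-41135616, plus strand: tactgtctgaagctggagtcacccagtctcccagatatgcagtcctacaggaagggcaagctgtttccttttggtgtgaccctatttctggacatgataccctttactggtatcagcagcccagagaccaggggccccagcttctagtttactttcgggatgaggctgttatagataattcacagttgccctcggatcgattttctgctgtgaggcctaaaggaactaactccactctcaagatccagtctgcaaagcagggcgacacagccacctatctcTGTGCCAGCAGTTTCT
Trbv31, chr6:41557693-41557984, minus strand: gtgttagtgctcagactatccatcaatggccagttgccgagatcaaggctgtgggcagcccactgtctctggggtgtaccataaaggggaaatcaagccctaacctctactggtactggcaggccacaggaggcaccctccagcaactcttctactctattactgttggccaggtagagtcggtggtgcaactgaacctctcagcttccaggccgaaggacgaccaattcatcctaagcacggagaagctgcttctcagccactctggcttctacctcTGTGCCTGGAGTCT
The capitals begin alike and then part. Trbv14 and Trbv31 were 46.8% identical over the exon, and the segment nearest to Trbv14 was Trbv16 at 62.1%.

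Trbv20, Trbv24, Trbv12-1 and Trbv12-2 were the other tested segments whose levels did not overlap, each higher in the deficient libraries. Trbv20 had 130, 186 and 216 TPM in deficient C1, D and dated, against 104.5, 76.9 and 73.8 TPM in sufficient A1, B1 and dated. Its log2 fold change was 1.04 ± 0.23 (SE; limma adjusted p = 0.142) and was 0.79 between the undated and 1.54 between the dated libraries. Trbv24, annotated as a pseudogene, had 26.1, 29.95 and 26.5 TPM in the deficient and 10.5, 10.4 and 2.56 TPM in the sufficient libraries. The deficient values lay within 4 TPM of each other, and the sufficient dated library was lowest. Its log2 fold change was 1.87 ± 0.45 (SE; limma adjusted p = 0.166), and it passed with the date mark as a covariate (0.0396).

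Trbv12-1 and Trbv12-2 alternate with the Trbv13 segments along the chromosome, in the order Trbv12-1, Trbv13-1, Trbv12-2, Trbv13-2, the pseudogene Trbv12-3 and Trbv13-3. Trbv12-1 had 30.25, 28.5 and 27.2 TPM in deficient C1, D and dated, against 17.4, 20.1 and 10.5 TPM in sufficient A1, B1 and dated. Trbv12-2 had 94.1, 171 and 137 TPM in the deficient and 78.5, 68.9 and 87.5 TPM in the sufficient libraries. Neither passed, at log2 fold changes of 0.85 ± 0.26 (limma adjusted p = 0.258) and 0.73 ± 0.23 (0.268). Their variable exons were 89.1% identical, but they share no window of 75 bases. The Trbv12 subfamily held 7.46%, 9.24% and 6.57% of the sum in the deficient and 6.35%, 6.01% and 5.54% in the sufficient libraries. By summed share, the interleaved Trbv12 and Trbv13 subfamilies thus differed in opposite directions, without overlap in either. This did not hold for each member, as the shares of Trbv12-1 and of Trbv13-3 overlapped. Trbv12-1 held 1.81%, 1.32% and 1.09% in the deficient and 1.15%, 1.36% and 0.59% in the sufficient libraries. Shares of 1 sum are also bound to each other.

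**Figure D2:**
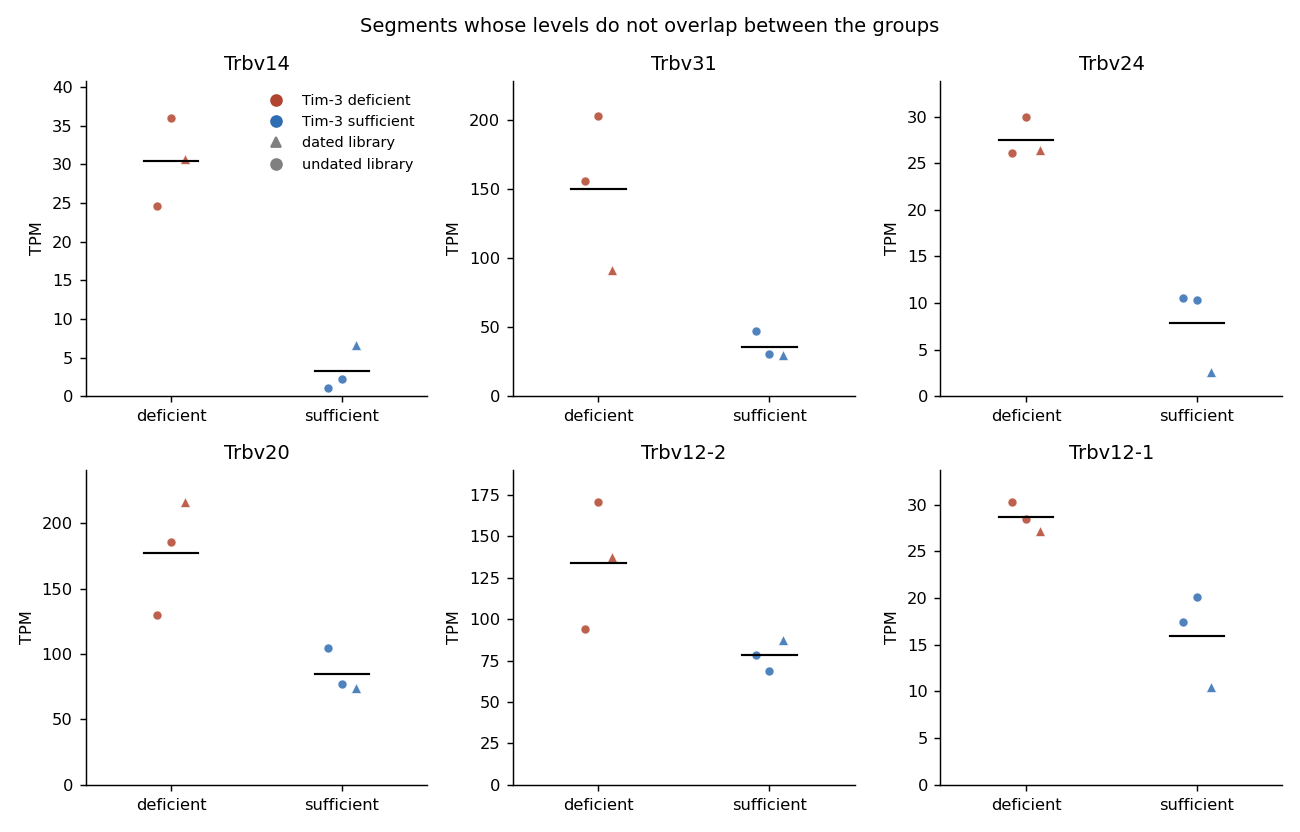
Level in TPM (vertical axis) of the 6 tested segments whose values do not overlap between the groups, with 1 point per library (triangles, dated libraries) and the group mean as a black bar. Trbv14 averages 30.4 TPM in Tim-3 deficient and 3.31 TPM in Tim-3 sufficient libraries, and none of the 6 passed the adjusted threshold in limma.

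No Trbv segment passed the threshold over the whole table. Of the 22 tested segments limma called 0 at an adjusted p under 0.05, where 25 of 12155 genes (0.206%) were called, 0.132% higher and 0.074% lower in deficient libraries. At an unadjusted p under 0.05 there were 7 segments, all higher in deficient libraries (Trbv12-1, Trbv12-2, Trbv14, Trbv17, Trbv20, Trbv24 and Trbv31), which is 31.8% of the 22, where 11.7% of all tested genes reached that p. The levels of 6 segments did not overlap between the groups, all 6 higher in deficient libraries, which is 27.3% of the 22. Over all tested genes 17.6% did not overlap, 10.9% being higher and 6.73% lower in deficient libraries. Without the deficient dated library 31.8% of the segments and 39.2% of all tested genes did not overlap, and without both dated libraries 40.9% of the segments and 51.3% of all tested genes. The segments are parts of 1 receptor repertoire and are not independent of each other. With the date mark as a covariate limma called 3 segments, Trbv14, Trbv24 and Trbv31, all higher in deficient libraries, where 1.97% of all tested genes were called and 1.12% were called higher. Without both dated libraries, a setting chosen after seeing the data, these 3 and Trbv2 were called, where 215 of all tested genes (1.77%) were called. Trbv2 had 74.4, 58.5 and 47.3 TPM in deficient C1, D and dated, and 31.9, 27.8 and 63.0 TPM in sufficient A1, B1 and dated. It was higher by 1.12 on the log2 scale between the undated libraries and differed by -0.41 between the dated ones, and over all 6 its limma adjusted p was 0.499.

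Log2 fold changes were above 0 for 19 of the 22 segments, or 86.4%, where 60.1% of all tested genes were above 0. Their median was 0.57, against 0.09 over all tested genes. The 3 below 0 were Trbv13-1, Trbv13-2 and Trbv29. Scaling the libraries to equal medians shifted the median of all genes by -0.13 and left 16 segments above 0, with Trbv1, Trbv4 and Trbv5 the closest to 0 before that shift.

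**Figure D3:**
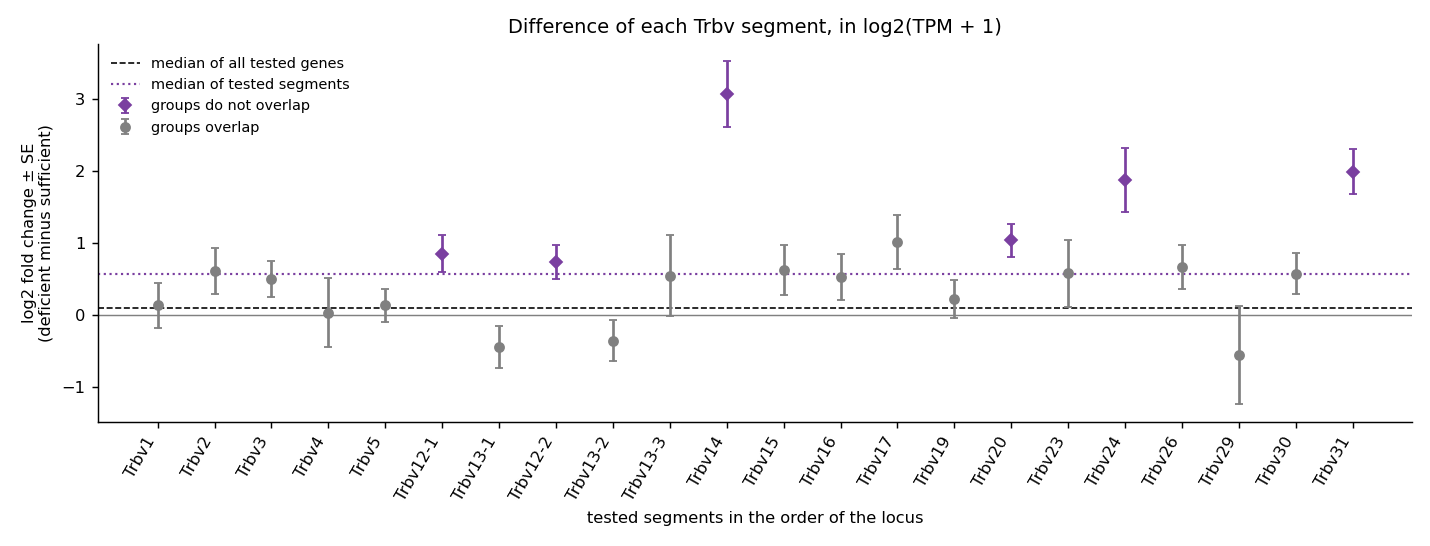
Log2 fold change (deficient minus sufficient, with SE) of the 22 tested segments in the order of the locus, as diamonds where the groups do not overlap, with the median of all tested genes (0.09) and of the segments (0.57) as lines. Trbv14 lies highest at 3.06 and Trbv29 lowest at -0.56.

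The remaining abundant segments overlapped between the groups. Trbv1, which lies apart from the others beyond a block of trypsinogen genes, had 141, 126 and 277 TPM in deficient C1, D and dated, and 118, 174 and 182 TPM in sufficient A1, B1 and dated, a log2 fold change of 0.13 ± 0.31. Trbv5 had 102, 131 and 196 TPM in the deficient and 121, 121 and 135 TPM in the sufficient libraries, a log2 fold change of 0.13 ± 0.23. Both overlapped, and in both the deficient dated library was the highest of the 6. Trbv3 had 108, 191 and 183 TPM in the deficient and 88.0, 123 and 123 TPM in the sufficient libraries. Trbv19 had 101, 145 and 177 TPM in the deficient and 86.1, 127 and 148 TPM in the sufficient libraries. The groups overlapped through deficient C1 for Trbv3, and through deficient C1 and D for Trbv19. The log2 fold change was 0.50 ± 0.25 for Trbv3 and 0.22 ± 0.27 for Trbv19.

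Trbv16 varied within both groups, with 171, 111 and 163 TPM in deficient C1, D and dated, and 85.6, 72.5 and 168 TPM in sufficient A1, B1 and dated. Its log2 difference was 0.80 between the undated libraries and -0.04 between the dated ones. Trbv17 had 63.9, 82.3 and 118 TPM in the deficient and 69.8, 25.0 and 41.6 TPM in the sufficient libraries, where sufficient A1 lay above deficient C1. The log2 fold change of Trbv17 was 1.01 ± 0.37 (limma adjusted p = 0.344). Trbv29, chosen after its values were seen, was lowest in the deficient dated library at 9.59 TPM, against 40.9 TPM in deficient C1 and 82.8 TPM in deficient D, and had 48.4, 72.5 and 31.9 TPM in the sufficient libraries. The log2 difference of Trbv29 was -0.02 between the undated libraries and -1.63 between the dated ones.

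The deficient libraries had the more even repertoire. The effective number of segments, the exponential of the Shannon entropy of the shares, is the number of equally used segments that would give the same evenness. It was 17.8, 17.8 and 17.0 in deficient C1, D and dated, against 15.8, 15.96 and 14.2 in sufficient A1, B1 and dated. The means were 17.6 ± 0.5 in deficient and 15.3 ± 1.0 in sufficient libraries (SD, n = 3 each), a difference of 2.23 that was 1.94 between the undated and 2.81 between the dated libraries. The most abundant segment held 10.2%, 10.1% and 11.1% of the sum in the deficient and 19.04%, 11.8% and 19.9% in the sufficient libraries. The 5 most abundant held 44.8% to 44.96% in deficient and 48.7% to 55.7% in sufficient libraries.

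Shares did not overlap between the groups for 7 of the 22 segments. Trbv12-2, Trbv14, Trbv20, Trbv24 and Trbv31 held larger shares in each deficient library, and Trbv13-1 and Trbv13-2 smaller ones. That is 31.8% of the tested Trbv segments, beside 21.7% of the 106 tested alpha chain variable (Trav) segments as shares of the summed Trav TPM. As levels, limma called 2 of these 106 Trav segments, against 0 of the 22 Trbv segments and 0.206% of all tested genes. The median log2 fold change of the tested Trav segments was -0.34. In percentage points the widest gaps between group means were -7.16 for Trbv13-2, 5.16 for Trbv31, -3.46 for Trbv13-1 and 2.90 for Trbv20.

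Libraries of the same group had more of their Trbv shares in common than libraries of different groups on average. The shared percentage of a pair is the sum over segments of the smaller of the 2 shares. It was 83.3% to 88.1% for the 3 pairs of deficient libraries, 81.7% to 83.1% for the 3 pairs of sufficient libraries, and 72.9% to 82.6% for the 9 pairs across groups. Deficient C1 and D were the most alike pair, at 88.1%. The deficient dated library had 82.5% to 82.6% in common with each sufficient library, close to the 83.3% and 83.5% it had in common with its own group. The pairs share libraries and were not tested.

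**Figure D4:**
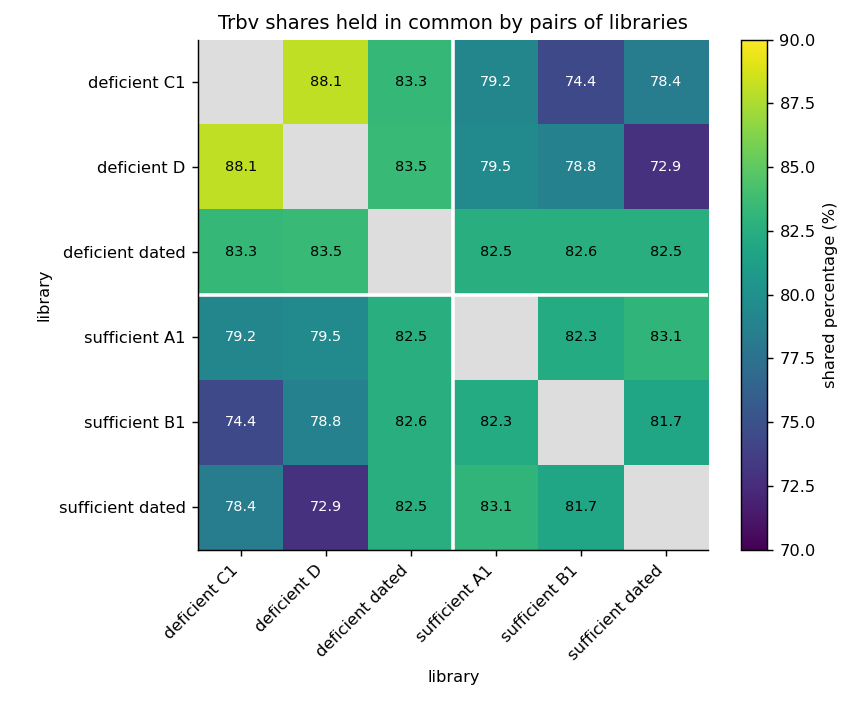
Percentage of the Trbv shares that each pair of libraries has in common, with Tim-3 deficient libraries above and left of Tim-3 sufficient libraries and white lines between the groups. Deficient C1 and deficient D have 88.1% in common, and deficient D and the sufficient dated library have the lowest value, 72.9%.

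The summed level of the Trbv segments was 1670, 2159 and 2501 TPM in deficient C1, D and dated, against 1511, 1480 and 1767 TPM in sufficient A1, B1 and dated. The groups overlapped through deficient C1, and the mean log2 of the sum differed by 0.40. The constant segments Trbc1 and Trbc2, near-identical copies whose reads can be divided between them, summed to 3307, 4002 and 4535 TPM in the deficient and 3013, 3077 and 3873 TPM in the sufficient libraries. Neither passed in limma, at log2 fold changes of 0.29 ± 0.19 for Trbc1 and 0.23 ± 0.16 for Trbc2. The Trbv sum was 50.5%, 53.9% and 55.1% of the Trbc sum in the deficient and 50.1%, 48.1% and 45.6% in the sufficient libraries, without overlap.

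The alpha chain side stood lower in the deficient libraries while the beta chain side did not. Trac, the constant segment of the alpha chain, had 1551, 2320 and 2620 TPM in deficient C1, D and dated, against 3166, 3137 and 3345 TPM in sufficient A1, B1 and dated, without overlap. With a log2 fold change of -0.61 ± 0.20 (limma adjusted p = 0.288) it did not pass. The 128 Trav segments summed to 2041, 2894 and 2944 TPM in the deficient and 3863, 3810 and 3491 TPM in the sufficient libraries. The Trbv sum was therefore 74.6% to 84.9% of the Trav sum in deficient and 38.8% to 50.6% in sufficient libraries. The effective number of Trav segments was 59.6 to 72.8 in deficient and 54.9 to 57.4 in sufficient libraries.

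**Figure D5:**
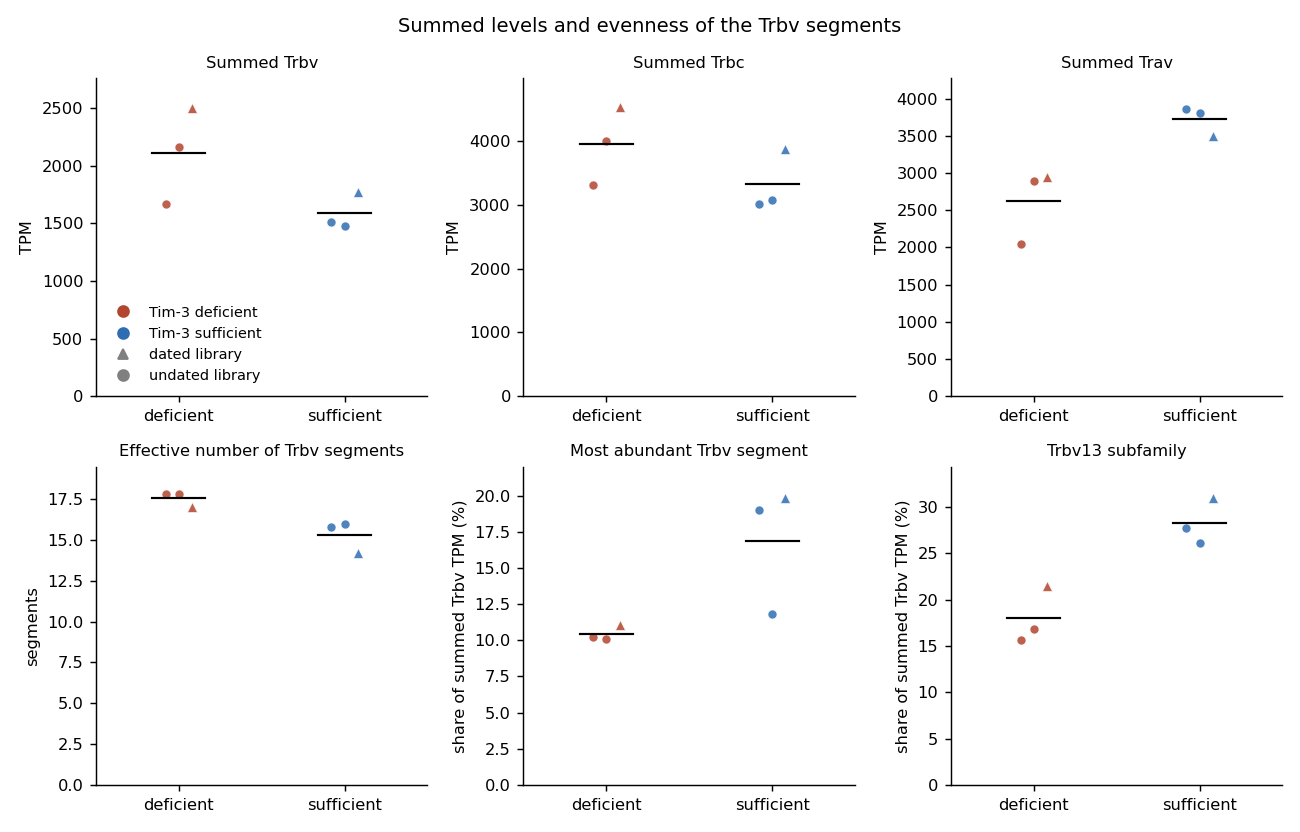
Summed levels in TPM of the Trbv, Trbc and Trav segments (upper row), and the effective number of Trbv segments, the share of the most abundant Trbv segment and the share of the Trbv13 subfamily (lower row), with 1 point per library and the group mean as a black bar. The Trbv13 subfamily averages 18.0% in Tim-3 deficient and 28.3% in Tim-3 sufficient libraries.

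Of the 5 partners of the beta chain in the receptor complex, limma called 0 in either direction, beside 0.206% of all tested genes. Beside Trac, the signalling chains Cd3d and Cd3e did not overlap and were lower in the deficient libraries, at log2 fold changes of -0.51 ± 0.17 and -0.32 ± 0.14, while Cd3g (-0.31) and Cd247 (-0.12) overlapped. Over all tested genes, 6.73% were lower in deficient libraries without overlap. The recombination genes Rag1 and Rag2, which cut the segments during thymic development, were listed at 0 in every library, and Dntt, which adds bases at the joints, reached at most 0.060 TPM. The gamma delta constant segment Trdc stood at 0.030 to 0.72 TPM in deficient and 0.070 to 1.32 TPM in sufficient libraries. No values were found under the names Trgc1, Trgc2 and Trgc4, so these gamma chain constant segments were not examined. All 16 Trbd and Trbj rows were listed at 0 in every library although every beta chain transcript holds a joining segment, so the table gives no measure of joining segment use. The 6 trypsinogen genes examined, which lie inside the locus and are digestive enzymes of the pancreas, summed to at most 2.04 TPM in deficient and 2.06 TPM in sufficient libraries.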

How the data were processed

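RNA of Treg cells sorted from tumours into plates of lysis buffer was made into Nextera XT libraries and read as 75 bp pairs, per the labels' protocols. The submitters' processing notes name STAR, RSEM and limma, with no version or role, and the builds GRCm38 and mm10. The deposited log2 values are the authors' log2(TPM + 1): raised back, each library sums to 1000000 within rounding. Whether strand was kept is not given in the sources used here.

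TPM was recovered as 2 to the value minus 1, and shares were taken over the Trbv rows. Genes with a log2 value of at least 1 in at least 3 libraries (12155) were fitted with limma 3.58.1 in R 4.3.3 (lmFit, eBayes with trend, no covariate), two-sided, with Benjamini-Hochberg adjustment and a threshold of 0.05. Log2 fold changes understate the change of low genes. The limma fit was tested on simulated data. Names, coordinates, transcript lengths and sequences came from GENCODE M21 on GRCm38, and all 35 identifiers matched. Python 3.11.15, pandas 2.3.3, Biopython 1.88 and matplotlib 3.10.9 were used.

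The members and lists were chosen with earlier results of these data known. Segments given with values in every library were the 12 of highest mean share, the 4 of smallest p, those whose groups do not overlap with a share of at least 1% in any library, and the leading segment of each library. Alternatives covered the filter, pseudocount, scaling, variance model, a date mark as covariate, how shares are counted, and leaving out libraries. The sum of the B and plasma cell marker list is not reported here.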

Additional observations from a re-analysis of the deposited data

How the results depend on the processing

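No paired analysis was possible because the columns carry no replicate number. The count of called Trbv segments was 0 as reported, and it was 1 with a pseudocount of 5 (Trbv14), 1 with quantile normalization (Trbv31), 1 with equal medians (Trbv31), 3 with the date mark as a covariate, 4 without both dated libraries, and 0 to 2 when each library was left out in turn. The count of all called genes was 25 as reported (16 higher and 9 lower), 32 with equal medians (12 higher and 20 lower), 1 with no filter on low values, 38 with quantile normalization (16 higher and 22 lower), 4 without the variance trend, 240 with the date mark as a covariate, 215 without both dated libraries, 0 without deficient C1 and sufficient B1, and 0 to 121 when each library was left out. Without deficient C1 and sufficient B1, which held the most macrophage transcripts, 12 of the 22 segments (54.5%) and 33.0% of all tested genes did not overlap as levels. With each library left out 7 to 10 segments (31.8% to 45.5%) and 23.6% to 39.2% of all tested genes did not, against 6 segments (27.3%) and 17.6% with all libraries. Fewer libraries make an overlap less likely by construction. The removal of 2 libraries together, and the alternatives for the Trbv13 share and for overlap, were chosen after seeing the data.

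Among the 15 named segments, Trbc1 and Trbc2, 263 of 272 alternative log2 fold changes kept their sign. Those that did not lay between -0.22 and -0.00042. With all libraries the log2 fold change was 0.13 for Trbv1 and Trbv5 and 0.22 for Trbv19. Trbv1 had -0.014 with equal medians and -0.10 without both dated libraries, and lay between -0.22 (without deficient dated) and 0.35 when each library was left out, with -0.066 without sufficient A1. Trbv5 had -0.0070 with quantile normalization, -0.014 with equal medians and -0.068 without both dated libraries, and lay between -0.12 (without deficient dated) and 0.35 with each library left out. Trbv19 lay between -0.00042 (without sufficient A1) and 0.44. The cause was not tested.

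The Trbv13 subfamily share differed by -12.1 to -8.97 percentage points when each library was left out, the effective number by 1.67 to 2.54, and the share of the most abundant segment by -8.99 to -4.96, which became -10.3 with subfamilies added together. In each of these settings the groups did not overlap. The shared percentage across groups minus that within groups was -4.69, between -6.62 and -2.68 when each library was left out, and -7.21 without both dated libraries. The difference in the log2 Trbv sum was 0.26 to 0.56 when each library was left out. The files give TPM only, so no counting interval could be set on low segments such as Trbv14.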
